A study of Homo sapiens with 5 samples.

Results

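Invasion through tissue requires enzymes that cut the extracellular matrix and shed proteins from the cell surface. The set described here holds 10 such genes: the matrix metalloproteinase genes MMP1, MMP2 and MMP14, TIMP2 for a tissue inhibitor of metalloproteinases, the urokinase gene PLAU, the matriptase gene ST14, and the membrane-bound disintegrin metalloproteinase genes ADAM10, ADAM12, ADAM15 and ADAM17. They were taken by their symbols from a table of 10594 genes, and each was represented by the transcript with the highest mean over all libraries. All 10 were in the table, in 19 of its 16383 transcript rows. No measured value was used to choose them, but they were chosen with earlier results of these data known.

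The cells were MDA-MB-231, a human breast cancer cell line of the triple-negative kind with a mesenchymal character. SET and CIP2A, both inhibitors of the phosphatase PP2A, were silenced, or the SET antagonist OP449 was applied, in a study of the transcription factor MYC. Each of the 5 groups had 1 library. They were cells with an siRNA against SET (siSET, 48 hours), cells with an siRNA against CIP2A (siCIP2A), cells with a control siRNA (siNT, 48 hours), cells treated for 12 hours with OP449 at 1 µM, and cells treated for 12 hours with PBS. The sample label of siCIP2A names no time, while the protocol gives 48 hours for the siRNAs. All groups share the line and medium, and nothing in the labels speaks of repeat cultures, so no difference below has a replicate check and no test between conditions exists.

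Values are scaled counts, the authors' read counts per transcript brought to a common scale. They could be turned back into whole reads, of which the gene table held 3640912 in siSET, 5601593 in siCIP2A, 5249790 in siNT, 4762232 in OP449 and 5513231 in PBS. Values in brackets are 95% exact counting intervals of a log2 ratio between libraries, and cover counting error only. Folds on the log2 scale that enter counts have 1 added to both values, so that changes of low genes come out too small. SET, CIP2A and MYC were not analysed here, so the extent of silencing was not checked. The vimentin gene VIM stood at 15670 to 20867 scaled counts and the hyaluronan receptor gene CD44 at 13820 to 20560, while the E-cadherin gene CDH1 stood at 12.9 to 56.7 and the progesterone receptor gene PGR was at 0 in every library. Of 3 leukocyte markers measured, the summed level was at most 3.56 scaled counts, and both basal keratin genes measured, KRT5 and KRT14, were at 0. The summed level of 3 endothelial markers was 2.27 to 9.02, and the fibroblast collagen gene COL1A1 stood at 73.7 to 162. The keratin gene KRT19, which was on the list of genes low in this line, went against that list at 4275 to 5998, as did ERBB2 at 1049 to 1179. EPCAM, at 139 to 282, and GATA3, at 133 to 250.1, of the same list were also detected in every library.

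Matrix metalloproteinases are made as inactive zymogens. Collagenase 1, the product of MMP1, cuts fibrillar collagens. MT1-MMP, the product of MMP14, sits on the cell membrane, where it cuts collagen and activates the zymogen of MMP2, with TIMP2 serving both as its inhibitor and as the bridge that brings pro-MMP2 to it. Urokinase turns plasminogen into plasmin at its receptor, which PLAUR encodes. Matriptase is a membrane-bound serine protease held in check by the inhibitors that SPINT1 and SPINT2 encode. The ADAM proteases release growth factors, cytokines and receptors from membranes. MDA-MB-231 is widely used as a model of invasive breast cancer.

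Levels per kilobase could be set side by side for the 6 members whose transcript spans the same stretch, within 300 bases, in the table and in the GENCODE annotation that gave the lengths. TIMP2, PLAU and MMP14 stood highest. Their means over the 5 libraries were 3055 scaled counts per kilobase for TIMP2, 2723 for PLAU and 2260.1 for MMP14. ADAM15 had a mean of 714, MMP1 of 29.98 and ST14 of 23.1. TIMP2 was the first of these in siSET, siCIP2A and PBS, and PLAU was the first in siNT and OP449. The PLAU level in siNT was 3480.0 scaled counts per kilobase and that of TIMP2 was 2986.

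**Figure D1:**
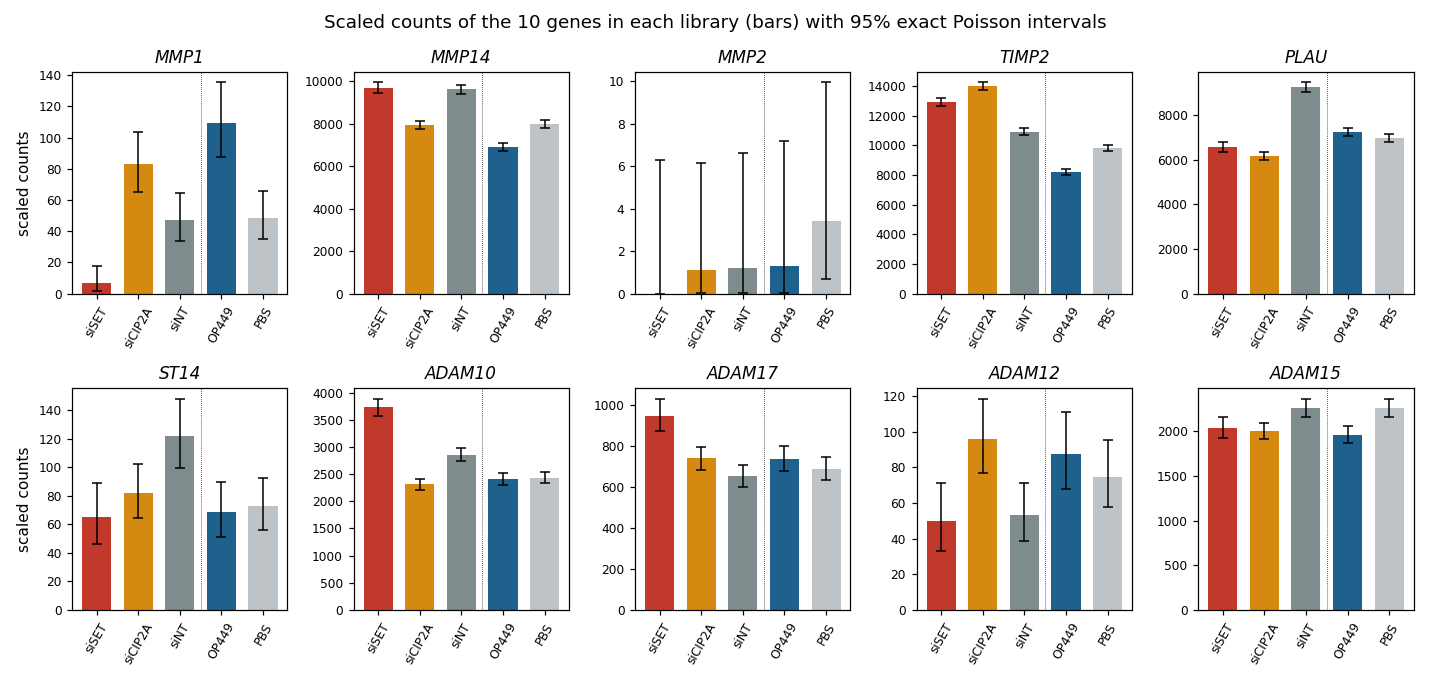
Scaled counts (vertical axis, linear from 0) of each of the 10 genes in the 5 libraries, with 95% exact Poisson intervals as bars; the dotted line separates the siRNA libraries from the 12-hour libraries. MMP1 stands at 6.84 in siSET against 47.4 in siNT, MMP2 is near 0 throughout, and PLAU and ST14 are highest in siNT.

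Promoter sequences from RefSeq (GRCh38.p14, 250 bases before to 50 after a gene's start) matched 6 of the 10 members with 7 starts, 2 of them of PLAU. MMP1, MMP2, TIMP2 and ST14 had no match, so their promoters were not searched. GGGCGG, the GC box letters bound by SP1-type factors, was searched on both strands and was present in 6 of these 7, against 45.0% of all 35116 promoters. TGANTCA, the AP-1 core, which covers both strands at once, was in none of the 7 and in 7.71% of all. TATAAA, searched on both strands, was in none of the 7 and in 11.5% of all. Only GGGCGG matched in the members, so no matches of different motifs overlap. The stretches shown hold the first GC box on the gene's strand in 4 promoters, those of ADAM10 and ADAM17, which were both highest in siSET, and of MMP14 and PLAU, which are abundant and differ between the controls. The GC box is in capitals, and each is read 5′ to 3′ on the gene's strand.
ADAM10, chr15:58749883-58749912, minus strand: ggggacgggtagGGGCGGgaggtaggggcg
ADAM17, chr2:9555935-9555964, minus strand: gctagacgtgacGGGCGGggccgaacacgg
MMP14, chr14:22836507-22836536, plus strand: aggagggcactgGGGCGGggacggaggaga
PLAU, chr10:73911054-73911083, plus strand: ggggagggagccGGGCGGgagagggagggg
A match is a description of letters, and whether any factor binds there was not measured. GC content over the 300-base windows was 68.0% for ADAM10, 74.7% for ADAM17, 55.0% for MMP14 and 70.0% for the PLAU start shown, against a median of 58.7% over all promoters.

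MMP1 had the widest range of the 9 members for which a fold is given. On hg19, to which all transcript positions refer, it lies on the minus strand of chromosome 11 from 102660641 to 102668966. It stood at 6.84 scaled counts in siSET, 82.8 in siCIP2A, 47.4 in siNT, 109.5 in OP449 and 48.7 in PBS. These values rest on 4, 75, 40, 85 and 43 reads in the same order, so MMP1 is a low-count gene in this line. siSET lay far below every other library, both controls lay together, and siCIP2A and OP449 lay above them. In bulk RNA such as this, fewer expressing cells and less RNA per cell cannot be told apart.

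In siSET the MMP1 level was 6.93-fold lower than in siNT, with a log2 ratio of -2.79 [-4.74 to -1.32]. Against PBS the ratio was -2.83 [-4.77 to -1.37], so the choice of control made little difference. Against siCIP2A it was -3.60 [-5.51 to -2.18]. The mean of the siSET and siNT pair was 27.1 scaled counts, under the floor of 50 that the counts below use. siSET was also the shallowest library, where 1 read is worth 1.71 scaled counts and a count of 0 would allow up to 5.13. siCIP2A was 1.75-fold above siNT at 0.80 [0.23 to 1.40], and 1.70-fold above PBS. OP449 was 2.25-fold above PBS at 1.17 [0.62 to 1.73]. The interval of OP449 against siCIP2A, 0.40 [-0.06 to 0.87], includes equality, as does that of siNT against PBS, -0.04 [-0.70 to 0.62]. The second transcript row of MMP1, which covers the same span and can share reads with the first, gave the same order of libraries, with 4, 67, 35, 72 and 37 reads in siSET, siCIP2A, siNT, OP449 and PBS.

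The spread of MMP1 over the libraries, the highest minus the lowest log2 value, was 3.82. Over the 6091 genes with a mean of at least 50 scaled counts the median spread was 0.41, and 99.97% had a smaller one than MMP1. MMP1 passed this floor, at a mean of 59.1, only through siCIP2A and OP449, since siSET, siNT and PBS each stood under 50. Its rank therefore rests in part on those higher values, and low counts also widen such a spread. MMP1 sits in a cluster of metalloproteinase genes. Of the 15 genes in the table within 700 kb on either side, itself included, 9 encode matrix metalloproteinases, and the other 8 had at most 6 reads in any library. MMP3 and MMP10, which encode stromelysins, each had 1 read in OP449 and none elsewhere. MMP7 had 2 reads in siSET, 3 in siCIP2A, 6 in siNT, 1 in OP449 and 0 in PBS. BIRC3, an apoptosis inhibitor gene in the same window, went with MMP1 in siSET and against it in siCIP2A, with log2 folds of -0.97 and -1.31 against siNT, and stood at 0.15 in OP449 against PBS.

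The genes with the profile most like that of MMP1 over the 5 libraries were found by the Euclidean distance of log2 values centred on each gene's mean, among the same 6091 genes. They were PEAR1 at a distance of 1.34, TFAP2E at 1.53 and SHISA2 at 1.60. SHISA2 rests on more reads, with 88 in siSET, 388 in siCIP2A, 354 in siNT, 641 in OP449 and 215 in PBS. It shares the low siSET value and the high OP449 value, but its siCIP2A level of 428 scaled counts was close to the siNT level of 419.5.

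MMP14, on chromosome 14 from 23305793 to 23316802, stood at 9693 scaled counts in siSET, 7955 in siCIP2A, 9618 in siNT, 6914 in OP449 and 7994 in PBS. siSET and siNT formed an upper pair, siCIP2A and PBS a middle pair, and OP449 was lowest. Within each pair the counting interval of the ratio included equality. siSET against siNT was 0.01 [-0.04 to 0.06], siCIP2A against siNT was -0.27 [-0.32 to -0.23], and OP449 against PBS was -0.21 [-0.26 to -0.16]. The controls differed as much, with siNT at 0.27 [0.22 to 0.31] against PBS. Against PBS, siSET stood at 0.28 and siCIP2A at -0.01.

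MMP2, the gelatinase whose zymogen MT1-MMP activates, had 0 reads in siSET, 1 in siCIP2A, 1 in siNT, 1 in OP449 and 3 in PBS. All of these are at or under the 3 reads that a count of 0 allows, so no fold is given. The transcript used lies on chromosome 16 from 55515474 to 55540584.

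TIMP2, the inhibitor gene of the set, lies on the minus strand of chromosome 17 from 76849063 to 76921472. It stood at 12902 scaled counts in siSET, 13985 in siCIP2A, 10905 in siNT, 8206 in OP449 and 9788 in PBS. Every neighbouring pair in this order of levels was apart in its counting interval. The SET and CIP2A siRNA libraries were above both controls, and OP449 was below both. siSET against siNT was 0.24 [0.20 to 0.29] and siCIP2A against siNT 0.36 [0.32 to 0.40]. Against PBS they were 0.40 and 0.51. OP449 against PBS was -0.25 [-0.30 to -0.21].

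The balance of MMP14 and TIMP2 transcripts therefore differed between libraries. MMP14 had 0.751 reads per TIMP2 read in siSET (95% interval 0.726 to 0.778), 0.569 in siCIP2A (0.553 to 0.586), 0.882 in siNT (0.856 to 0.909), 0.843 in OP449 (0.812 to 0.874) and 0.817 in PBS (0.791 to 0.843). siCIP2A was lowest, siSET lay between it and the others, and the interval of OP449 overlapped those of both controls. The intervals of siNT and PBS did not overlap each other, and siSET stood nearer to PBS than to siNT. MMP14 and TIMP2 were both lower in OP449 than in PBS, and their ratio there was close to that of PBS.

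**Figure D2:**
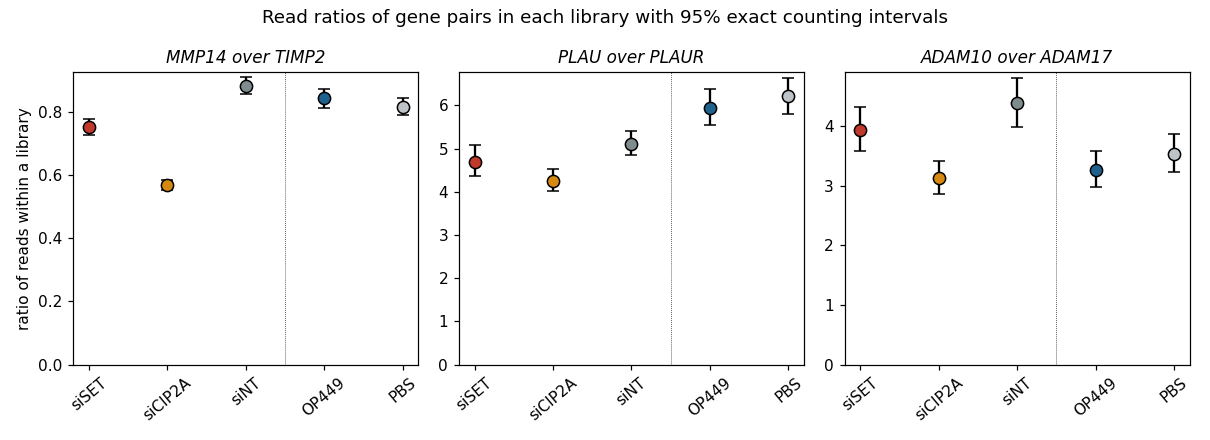
Ratio of reads of paired genes within each library (vertical axes, linear from 0) with 95% exact counting intervals as bars. MMP14 over TIMP2 is lowest in siCIP2A at 0.569. PLAU over PLAUR is lowest in siCIP2A at 4.26 and highest in PBS at 6.21, but the intervals of siCIP2A and siSET overlap, as do those of PBS and OP449. ADAM10 over ADAM17 is highest in siNT at 4.38, with an interval that overlaps that of siSET.

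PLAU stood at 6560.3 scaled counts in siSET, 6157 in siCIP2A, 9249.9 in siNT, 7244 in OP449 and 6973 in PBS. PLAU lies on chromosome 10 from 75670862 to 75677256. siNT stood above the other 4 libraries, which kept within a narrow range. siSET was thus 1.41-fold lower than siNT at -0.50 [-0.55 to -0.44], and siCIP2A was lower at -0.59 [-0.64 to -0.54], but against PBS they stood at -0.09 [-0.15 to -0.03] and -0.18 [-0.23 to -0.13]. siNT itself was 0.41 [0.36 to 0.46] above PBS. OP449 against PBS was 0.06 [0.00 to 0.11].

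The receptor gene PLAUR was, like PLAU, highest in siNT. It stood at 1396 scaled counts in siSET, 1445 in siCIP2A, 1808 in siNT, 1219 in OP449 and 1123 in PBS. Its siNT level was 0.69 [0.57 to 0.80] against PBS. PLAU had 4.70 reads per PLAUR read in siSET, 4.26 in siCIP2A, 5.11 in siNT, 5.94 in OP449 and 6.21 in PBS. The siRNA libraries thus had fewer PLAU reads per PLAUR read than both 12-hour libraries, the control siRNA included.

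ST14 was low, at 65.0 scaled counts in siSET, 81.7 in siCIP2A, 122 in siNT, 68.3 in OP449 and 72.5 in PBS, from 38, 74, 103, 53 and 64 reads. ST14 lies on chromosome 11 from 130029682 to 130080256. siNT again stood apart, and the intervals between neighbours among the other 4 libraries all included equality. siSET was 1.88-fold below siNT at -0.91 [-1.49 to -0.36] and siCIP2A 1.49-fold below at -0.58 [-1.03 to -0.13]. Against PBS they were -0.16 [-0.78 to 0.44] and 0.17 [-0.33 to 0.68]. siNT was 1.68-fold above PBS at 0.75 [0.29 to 1.22]. OP449 stood at -0.09 [-0.64 to 0.46] against PBS.

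The matriptase inhibitor genes were also highest in siNT. SPINT1 stood at 173 scaled counts in siSET, 130.3 in siCIP2A, 231 in siNT, 148 in OP449 and 155 in PBS. SPINT2 stood at 3060.3 in siSET, 3069.7 in siCIP2A, 3877 in siNT, 2732 in OP449 and 3154 in PBS. There were 0.0212 ST14 reads per SPINT2 read in siSET, 0.0266 in siCIP2A, 0.0315 in siNT, 0.0250 in OP449 and 0.0230 in PBS. The interval in siNT, 0.0256 to 0.0383, overlapped those of the other libraries.

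ADAM10, the sheddase that cleaves Notch receptors and CD44, stood at 3731 scaled counts in siSET, 2314 in siCIP2A, 2859 in siNT, 2404 in OP449 and 2431 in PBS. ADAM10 lies on the minus strand of chromosome 15 from 58888510 to 59042177. siSET was highest and siNT next, each apart from the level below it, and neighbours among the other 3 were not apart. siSET was 1.31-fold above siNT at 0.38 [0.30 to 0.47] and 1.53-fold above PBS at 0.62 [0.53 to 0.70]. siCIP2A stood at -0.30 [-0.39 to -0.22] against siNT and -0.07 [-0.16 to 0.02] against PBS. OP449 against PBS was -0.02 [-0.11 to 0.07]. Directly compared, siSET was 1.61-fold above siCIP2A at 0.69 [0.60 to 0.78].

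ADAM17, the sheddase that releases tumour necrosis factor and several EGF receptor ligands, was, like ADAM10, highest in siSET. It stood at 949 scaled counts in siSET, 739.8 in siCIP2A, 653 in siNT, 737 in OP449 and 688 in PBS. ADAM17 lies on the minus strand of chromosome 2 from 9629413 to 9695917. siSET was above all others, and the neighbours among the other 4 were not apart. siSET was 1.45-fold above siNT at 0.54 [0.37 to 0.71] and stood at 0.46 [0.30 to 0.63] against PBS. siCIP2A against siNT was 0.18 [0.02 to 0.35], opposite in sign to ADAM10, and OP449 against PBS was 0.10 [-0.07 to 0.27]. ADAM10 had 3.93 reads per ADAM17 read in siSET, 3.13 in siCIP2A, 4.38 in siNT, 3.26 in OP449 and 3.53 in PBS.

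ADAM12, which is made both as a membrane protein and as a secreted form, was low. It stood at 49.6 scaled counts in siSET, 96.1 in siCIP2A, 53.3 in siNT, 87.6 in OP449 and 74.8 in PBS, from 29, 87, 45, 68 and 66 reads. ADAM12 lies on the minus strand of chromosome 10 from 127702902 to 128077127. No neighbouring pair in this order was apart, but the ends were, with siSET at -0.95 [-1.61 to -0.33] against siCIP2A. siCIP2A was 1.80-fold above siNT at 0.85 [0.31 to 1.40] and stood at 0.36 [-0.12 to 0.84] against PBS. siSET stood at -0.10 [-0.83 to 0.60] against siNT and at -0.59 [-1.28 to 0.06] against PBS. OP449 stood at 0.23 [-0.28 to 0.74] against PBS, and siNT at -0.49 [-1.07 to 0.08] against PBS. The shorter transcript row had 13, 37, 14, 28 and 26 reads in siSET, siCIP2A, siNT, OP449 and PBS. The profiles most like that of ADAM12 were C14orf109 at a distance of 0.20, CSPG4, a proteoglycan gene, at 0.20, and C2orf64 at 0.21. CSPG4 had 236 reads in siSET, 635 in siCIP2A, 327 in siNT, 523 in OP449 and 442 in PBS.

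ADAM15, whose product carries an integrin-binding disintegrin domain, varied least. It stood at 2039 scaled counts in siSET, 2003 in siCIP2A, 2261 in siNT, 1965 in OP449 and 2266 in PBS. ADAM15 lies on chromosome 1 from 155023762 to 155035252, and its 6 transcript rows cover that same span with nearly equal reads. Both controls lay together and each treated library lay a little lower. The log2 ratios were -0.15 [-0.25 to -0.04] for siSET and -0.17 [-0.27 to -0.08] for siCIP2A against siNT, and -0.21 [-0.30 to -0.11] for OP449 against PBS. Its spread over the libraries was 0.21, smaller than the median of 0.41 over all genes.

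**Figure D3:**
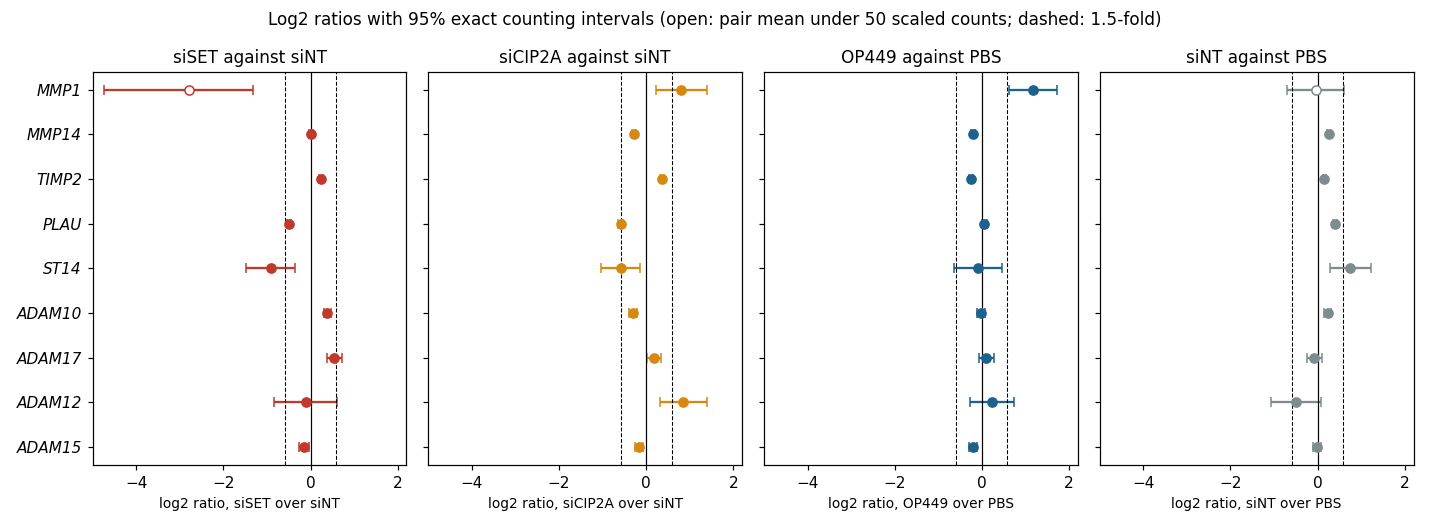
Log2 ratios of the members (horizontal axes, without pseudocount) with 95% exact counting intervals as bars, for siSET over siNT, siCIP2A over siNT, OP449 over PBS and siNT over PBS; open points mark pairs with a mean under 50 scaled counts, dashed lines mark 1.5-fold, and MMP2 is left out. MMP1 lies at -2.79 in siSET and at 1.17 in OP449, and ST14 lies at -0.91 in siSET and at 0.75 in siNT over PBS.

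As a set, the members were counted at folds of at least 1.5 and 2, among genes whose mean over both libraries was at least 50 scaled counts. In siSET against siNT, 8 members passed this floor. ST14 was 1.5-fold lower, none was 1.5-fold higher and none reached 2-fold. Among all 6082 genes past it, 4.31% were lower and 2.84% higher by that fold, and 1.18% reached 2-fold in either direction. With a floor of 20, MMP1 joined as the 1 member at least 2-fold lower, where 1.04% of 6551 genes were. The median log2 fold of the members was -0.05, against 0.01 for all genes, with 4 members above 0 and 4 below. The counting interval lay above 0 for TIMP2, ADAM10 and ADAM17 and below 0 for PLAU, ADAM15 and ST14, as it did for 19.8% of all genes on either side. Against PBS, where 5.72% of genes reached 1.5-fold in either direction, ADAM10 did and ST14 did not. ADAM12, at -0.58 with 1 added to both values, lay just short of it.

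In siCIP2A against siNT, 9 members passed the floor. MMP1 and ADAM12 were at least 1.5-fold higher and PLAU at least 1.5-fold lower, and none reached 2-fold. Of 6100 genes, 2.75% were 1.5-fold higher, 3.33% were lower and 1.11% reached 2-fold. PLAU, at -0.59, lies just past the threshold, and ST14, at -0.57, just short of it. Rescaling the libraries to equal totals ended the PLAU call, and rescaling by the median of ratios added ST14. MMP1 passed the floor here only through siCIP2A, since siNT stood at 47.4, so the floor kept its higher value in this count and left its lower value in siSET out of the count there. Against PBS, where 5.79% of genes reached 1.5-fold in either direction, only MMP1 of these 3 still did. The median of the members was -0.17, against 0.02 for all genes. The counting interval lay above 0 for 4 members, where it did for 21.3% of genes, and below 0 for 5, where it did for 20.2%.

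In OP449 against PBS, 9 members passed the floor and MMP1 alone reached 1.5-fold and 2-fold, being higher. It passed the floor only through OP449, since PBS stood at 48.7, so its place in this count rests on the higher value itself. Of 6094 genes, 1.99% were 1.5-fold higher, 1.77% were lower, 0.591% reached 2-fold and 0.295% were 2-fold higher. The median was -0.02, against 0.02 for all genes. The interval lay above 0 for MMP1 and PLAU, against 19.3% of genes, and below 0 for MMP14, TIMP2 and ADAM15, against 16.9%. In siNT against PBS, 8 members passed, and ST14 alone reached 1.5-fold, being higher, where 1.63% of 6074 genes were, 1.40% were lower and 0.395% reached 2-fold. The median was 0.19, against -0.00 for all genes. Between these controls the counting interval lay above 0 for 5 members (MMP14, PLAU, TIMP2, ADAM10 and ST14) and below 0 for none, while it lay above 0 for 17.7% of all genes and below 0 for 17.6%. MMP14, PLAU, TIMP2 and ADAM10 had mean levels above those of at least 96.0% of all genes. More reads narrow the interval, so in every comparison these shares over all genes are not matched for depth. siSET and siCIP2A share siNT as control, and siNT differs from PBS in time as well as in treatment, so each fold against siNT carries the level of that library.

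**Figure D4:**
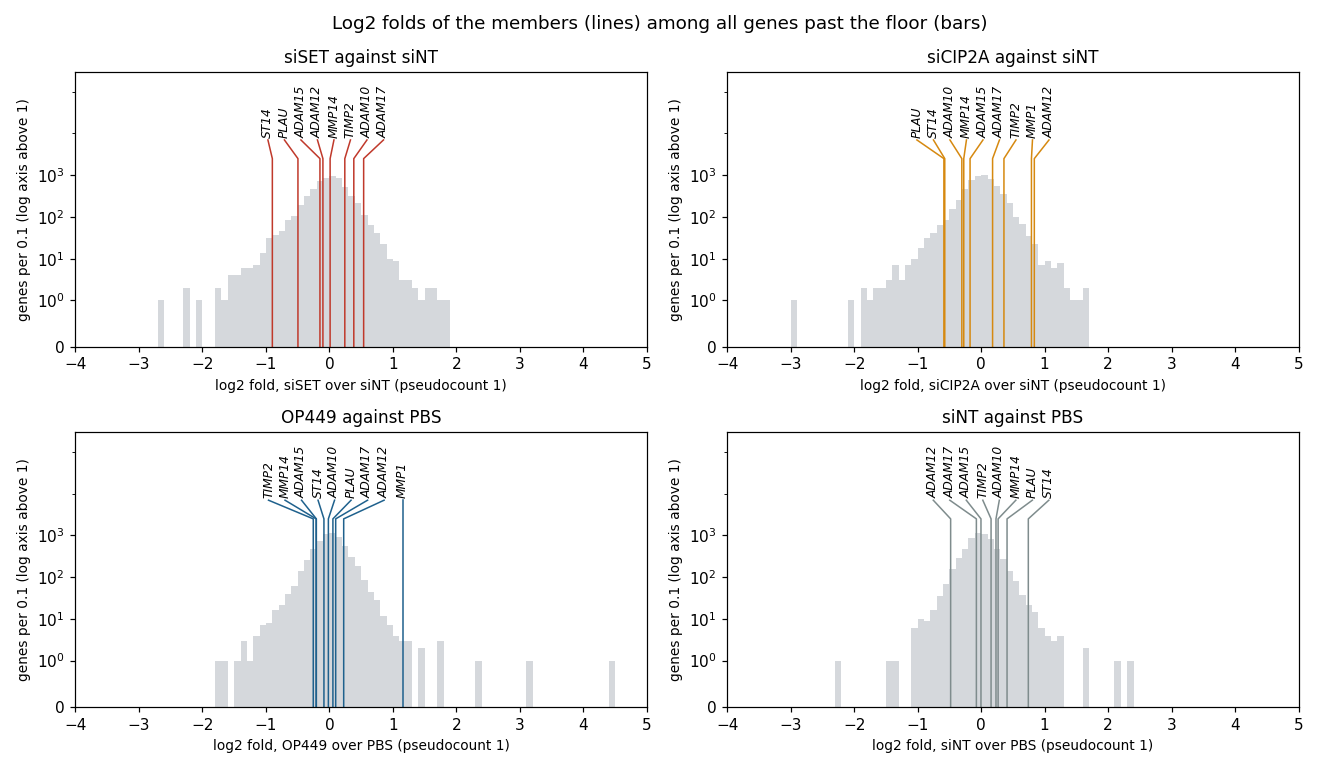
Number of genes per 0.1 of log2 fold (grey bars, logarithmic vertical axis above 1) for all genes past the floor of 50 scaled counts in each comparison, with the log2 folds of the members as coloured lines. Most members lie within the body of the distribution, and MMP1 in OP449 over PBS, at 1.15, lies in its upper tail.

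Other genes of these pathways were read from 9 lists chosen with earlier results known, with the same floor of 50 and fold of 1.5. Of 20 other matrix metalloproteinase genes, 16 were in the table and only MMP15 and MMP19 passed the floor, with none at 1.5-fold in any comparison. MMP15 encodes another membrane-type enzyme and stood at -0.25 in siSET and -0.02 in siCIP2A against siNT and at -0.27 in OP449 against PBS. MMP19 stood at 0.30, 0.43 and -0.09 in the same order.

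Of 21 other ADAM and ADAMTS genes, 12 were in the table and ADAM8, ADAMTS14 and ADAMTS15 passed the floor. ADAM8 stood at 2693 scaled counts in siSET, 3538 in siCIP2A, 4221 in siNT, 1798 in OP449 and 3071 in PBS. ADAMTS14, which encodes a procollagen N-proteinase, stood at 378 in siSET, 611 in siCIP2A, 808 in siNT, 219 in OP449 and 416 in PBS. Both were at least 1.5-fold lower in siSET than in siNT, with log2 folds of -0.65 and -1.09, and in OP449 than in PBS, with -0.77 and -0.92. Neither reached 1.5-fold in siCIP2A. ADAMTS14 was 0.96 and ADAM8 0.46 higher in siNT than in PBS, and siSET lay close to the PBS level in both. ADAMTS15 ranged over the comparisons from -0.43 in siCIP2A to 0.33 in siNT against PBS.

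In the plasminogen activation list, 7 of 12 genes were in the table and 5 passed the floor. None reached 1.5-fold in the siSET, siCIP2A or OP449 comparisons, and PLAUR alone did in siNT against PBS. The annexin gene ANXA2, part of a plasminogen receptor complex, stood at 0.24 in siSET and 0.28 in siCIP2A against siNT, and its partner S100A10 at 0.27 in OP449 against PBS. ANXA2 was lowest in siNT, at 6347.5 scaled counts, and siSET at 7506 and siCIP2A at 7721 lay close to PBS at 7511. The enolase gene ENO1, whose product also binds plasminogen, stood at -0.39 in OP449 and -0.35 in siNT against PBS. SERPINB8 stood at -0.36 in siSET and -0.35 in siCIP2A against siNT, and siNT stood at 0.27 against PBS for this gene.

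Of 15 other trypsin-like protease genes, 12 were in the table. Of these, 3 passed the floor in each siRNA comparison and 2 in OP449 against PBS. PRSS22 was more than 2-fold lower in siSET, at -1.64, and in siCIP2A, at -1.49, against siNT, and its siNT level was 2.35 above PBS. PRSS22 stood at 37.6 scaled counts in siSET, 42.0 in siCIP2A, 119.7 in siNT, 20.6 in OP449 and 22.7 in PBS. It thus passed the floor only through siNT, and siSET and siCIP2A lay above PBS. The other 2, HTRA1 and PRSS23, did not reach 1.5-fold anywhere, with HTRA1 at 0.42 and PRSS23 at 0.37 in siSET. Among other protease inhibitors, 7 of 14 were in the table and 5 passed. SERPINA1, the antitrypsin gene, was 1.5-fold lower in siSET (-0.76) and in siCIP2A (-0.66), as was SPINT1 in siCIP2A (-0.82), with siNT, the control here, at 0.40 for SERPINA1 and 0.57 for SPINT1 against PBS. SERPINA1 stood at 1873 scaled counts in siSET, 2011 in siCIP2A, 3173 in siNT, 2164 in OP449 and 2411 in PBS, so that siSET and siCIP2A were within 1.5-fold of PBS. SERPINH1, a collagen chaperone of the serpin family, stood at 0.37 in siSET. The medians of this list were -0.38 in siSET, -0.34 in siCIP2A and -0.16 in OP449, and 0.30 in siNT against PBS.

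The list of protease maturation and trafficking had 12 of 17 genes in the table and 10 past the floor. FURIN, the convertase that activates MMP14 and the ADAM proteases, stood at 1709 scaled counts in siSET, 1609.9 in siCIP2A, 1894 in siNT, 1525 in OP449 and 1511 in PBS, within 1.5-fold in every comparison. BSG, the inducer of matrix metalloproteinases also known as basigin, stood at 9178 to 9532 scaled counts in siSET, siCIP2A, siNT and PBS and at 9018 in OP449. TSPAN14, a tetraspanin that escorts ADAM10, stood at 0.37 in siSET and 0.55 in siCIP2A against siNT and at -0.50 in OP449 against PBS. Its siNT level was itself below PBS, at -0.29 [-0.40 to -0.18]. TSPAN14 had 1873 scaled counts in siSET, 2128 in siCIP2A, 1453 in siNT and 1780 in PBS. SH3PXD2A, a scaffold of invadopodia, stood at -0.48 in siCIP2A against siNT and 0.19 in OP449 against PBS, with siNT at 0.31 against PBS.

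Of the 18 substrates of ADAM10 and ADAM17, 13 were in the table and 10 passed the floor. ICAM1 was 1.5-fold lower in siSET than in siNT (-0.63). At 1914 scaled counts in siSET, 2970 in siNT and 2694 in PBS, its siSET level was within 1.5-fold of PBS. VCAM1 was at -1.60 in siCIP2A and -1.19 in OP449, and EFNA1 was the highest of the list in siSET, at 0.19. VCAM1 was low, with 43 reads in siCIP2A, 123 in siNT, 42 in OP449 and 110 in PBS. In siCIP2A against siNT, VCAM1 passed the floor only through siNT. CD44 stood at -0.43 in siSET and -0.35 in siCIP2A against siNT and at 0.43 in OP449 against PBS. In siNT against PBS, CD44 stood at 0.28, and NOTCH2 led the list at 0.36. Of 13 cathepsin and legumain genes, 8 were in the table and 6 passed the floor. CTSF alone reached 1.5-fold, in siSET (0.62), with 0.57 in siCIP2A, both against siNT. CTSF stood at 676 scaled counts in siSET, 650 in siCIP2A, 438.5 in siNT and 504 in PBS. Both siSET and siCIP2A were thus within 1.5-fold of PBS. CTSS was the lowest in siSET against siNT, at -0.42, with siNT at 0.28 against PBS. CTSD was the lowest in OP449, at -0.33.

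AP-1 and ETS factors are known regulators of MMP1 and PLAU transcription. Of 13 genes, 11 were in the table and 8 passed the floor. Their median was -0.26 in siSET and -0.06 in siCIP2A against siNT, 0.01 in OP449 against PBS and 0.15 in siNT against PBS. FOSL1, the AP-1 subunit FRA1, stood at 3608 scaled counts in siSET, 4788 in siCIP2A, 4668 in siNT, 5206 in OP449 and 4439 in PBS. It was thus lowest in siSET and highest in OP449, as MMP1 was, over a far narrower range. ATF3 was 1.5-fold lower in siSET, at -0.64, and JUND in OP449, at -0.63. The ATF3 fold rests on 49 reads in siSET and 111 in siNT, with a log2 ratio of -0.65 [-1.17 to -0.15]. ATF3 was highest in siNT, at 131.5 scaled counts, and siSET at 83.8 was within 1.5-fold of PBS at 107.7. FOSL2 led the list in OP449 at 0.36 and JUN in siCIP2A at 0.13, and ETV4 was lowest in siCIP2A at -0.25. Whether any of these levels bears on MMP1 was not tested.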

How the data were processed

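Complementary DNA of 5 MDA-MB-231 cultures was primed with oligo-dT and read on an Illumina GAII, per the labels' protocols. The submitters' processing notes name hg19, CASAVA and Bowtie 1.0.0, without their roles. For the counting program, strand use and normalization, the sources used here name nothing. The deposited signal values are counts per RefSeq transcript multiplied by 1 factor per library. Dividing by the lowest nonzero value of a library gave whole numbers, within 0.001 reads, for 100% of values, so reads were recovered. Per read there were 1.71 scaled counts in siSET, 1.10 in siCIP2A, 1.19 in siNT, 1.29 in OP449 and 1.13 in PBS. The table used here covers part of the genome, and 8 symbols that had been turned into dates were left as they stand, each counted as 1 gene.

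Groups came from the sample labels. Folds used a pseudocount of 1 and a floor of 50 scaled counts on the pair's mean, with thresholds of 1.5 and 2. Ratios have Clopper-Pearson intervals and levels Poisson intervals at 95%. The code was tested on simulated data. Reads carry no molecular identifiers, so intervals cover counting error only and compare libraries, not conditions. Members and lists were chosen with earlier results of these data known. All members were named. From each list the genes with the highest and lowest fold in a comparison were named, together with PLAUR, SPINT1, SPINT2, FURIN, BSG, CD44 and FOSL1. Some results that this rule would name are not reported here. CSPG4 and other genes of like profile followed from the distance ranking, and BIRC3, MMP3, MMP7 and MMP10 were added after their values were seen, as neighbours of MMP1. Coordinates are on hg19 and counted from 1, except those of promoters. Python 3.11.15, scipy 1.17.1 and pandas 2.3.3 were used.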

Additional observations from a re-analysis of the deposited data

How the results depend on the processing

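No paired analysis was possible because each group holds 1 library. In siSET against siNT, 2 members reached 1.5-fold and 1 reached 2-fold without a floor and with a floor of 20, since MMP1 then passed. Summing transcript rows gave the same counts, but the MMP1 rows can share reads, so their sum can count a read more than once. A floor of 200 left 0 members at 1.5-fold in siSET, in OP449 (also 0 at 2-fold) and in siNT against PBS, and 1, PLAU, in siCIP2A, since MMP1, ST14 and ADAM12 are low. That floor gave a siSET median of 0.13. With PBS as the control the medians were 0.10 in siSET and 0.10 in siCIP2A, and 1 member reached 1.5-fold in each, ADAM10 in siSET and MMP1 in siCIP2A. Over the alternatives, 224 folds of single members moved by less than the reach of their counting interval to either side, and the other 10, all with PBS as control, moved by more. No fold of at least 1.5 past the floor changed sign. Rescaling to equal totals left 2 members at 1.5-fold in siCIP2A, without PLAU, and rescaling by the median of ratios gave 4, with ST14. Rescaling moved the median of all genes by at most 0.03 on the log2 scale. An exact binomial test of the reads with Benjamini-Hochberg adjustment at 0.05, which compares libraries only, called 1800 genes in siSET, 2021 in siCIP2A, 1616 in OP449 and 1581 in siNT against PBS, where 435, 371, 229 and 184 genes reached 1.5-fold. At 4 reads, the MMP1 level in siSET is limited by depth.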
